A study of Homo sapiens with 12 samples.

Results

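RNA immunoprecipitation followed by sequencing (RIP-seq) pulls a protein out of a cell lysate with an antibody and sequences the RNA that comes with it, beside the input RNA of the same lysate. Here it was applied to eIF3a in HepG2 cells, an established human liver cancer cell line, and the question was which transcripts eIF3a recovers. The 2 eIF3a RIP samples each gave 1 deposited list of peaks, stretches of exonic sequence with more RIP than input signal. A gene was called bound when the gene name attached to a peak occurred in both lists. This gave 4596 bound genes of 8796 with a peak in either list, and of 10830 with a peak in any of the 6 RIP lists of the series. Among all 20020 annotated protein coding genes, 4569 were bound, or 22.8%. Of the 8112 protein coding genes with a peak in replicate 1, 56.3% also had one in replicate 2.

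eIF3 is the large multi-subunit complex that joins the small ribosomal subunit before translation starts, holds the other initiation factors in place and helps to load the mRNA. eIF3a is its largest subunit and part of its structural core. The complex is best known for its work at the 5′ end of mRNAs, but it can also stay with ribosomes during early elongation and has been described to contact particular mRNAs directly. In liver cancer cells, as in other dividing cells, it belongs to the machinery that sets the rate of protein synthesis.

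The series held 12 samples, of which 4 concern eIF3a, the 2 RIP samples and the 2 inputs taken from lysate before the pull-down. All 4 came from HepG2 stably infected with the lentiviral construct pSIN4-3XFlag-eIF3a, which carries the coding sequence of eIF3a with an N-terminal Flag tag, so every eIF3a sample overexpressed the protein, the inputs included. Per the study's methods, the cells were cross-linked with ultraviolet light, lysed and sonicated, and no further treatment was given. Per the labels, the pull-down used an antibody against eIF3a itself, which would take endogenous and tagged protein alike, whereas the deposited lists are named for Flag. The study's methods call the 2 replicates biological, and the labels say nothing more of how they were grown.

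Replicate 1 held 21733 peaks on 8166 genes and replicate 2 held 12921 peaks on 5226 genes. The read depth behind either list is unknown. Peaks were narrower in replicate 1, with a median of 180 bases against 210 in replicate 2, and peaks of at least 1000 bases made up 1.88% and 6.56% of the lists. Between them the lists covered 5264544 and 4684786 exonic bases, so replicate 2 spread nearly as many bases over fewer genes. The median fold enrichment of RIP over input per peak was 2.98 in replicate 1 and 2.73 in replicate 2. Of 18 hepatocyte markers, 5 had a peak in both lists, SERPINA1, FGA, HNF4A and FOXA2 among them, 5 in replicate 1 alone and 8 in neither, among them ALB and AFP. Of 19 markers of blood, endothelial, stromal and neural cells, 1 had a peak in both, PECAM1, 4 in replicate 1 alone and 14 in neither. A peak marks enrichment over input and not the amount of RNA, so a marker without one may still be abundant in the cells.

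Stretches of 60 to 300 bases that lay under a peak in both lists within 1 coding exon are printed for the 6 best placed bound genes that have one, to show what the recovered RNA looks like. They are given 5′ to 3′ on the sense strand of the gene (GRCh38), capitals mark the bases under a peak in both lists, and lower case marks flanking bases of the same coding exon. The IGF2 stretch, chr11:2132987-2133223 on the minus strand, is in exon 4 of 4. That of EEF2, chr19:3976554-3976747 on the minus strand, is in exon 15 of 15. That of ZBTB46, chr20:63775678-63775962 on the minus strand, is in exon 3 of 5, and that of ZNF516, chr18:76380035-76380303 on the minus strand, is in exon 4 of 7. The MAVS stretch, chr20:3865877-3866147 on the plus strand, is in exon 7 of 7, and that of SEPT9, chr17:77498523-77498658 on the plus strand, is in exon 12 of 12.
IGF2: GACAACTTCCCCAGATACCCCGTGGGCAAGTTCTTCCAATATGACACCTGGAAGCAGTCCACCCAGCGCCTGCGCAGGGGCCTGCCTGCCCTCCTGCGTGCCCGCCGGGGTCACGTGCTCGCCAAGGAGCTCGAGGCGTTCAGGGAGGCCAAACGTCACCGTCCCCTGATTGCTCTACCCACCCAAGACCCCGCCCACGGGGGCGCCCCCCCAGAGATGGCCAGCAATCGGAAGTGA
EEF2: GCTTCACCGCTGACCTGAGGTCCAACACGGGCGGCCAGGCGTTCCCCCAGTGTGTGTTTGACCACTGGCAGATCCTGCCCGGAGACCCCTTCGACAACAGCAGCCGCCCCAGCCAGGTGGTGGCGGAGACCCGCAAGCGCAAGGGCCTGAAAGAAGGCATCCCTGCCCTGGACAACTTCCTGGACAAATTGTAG
ZBTB46: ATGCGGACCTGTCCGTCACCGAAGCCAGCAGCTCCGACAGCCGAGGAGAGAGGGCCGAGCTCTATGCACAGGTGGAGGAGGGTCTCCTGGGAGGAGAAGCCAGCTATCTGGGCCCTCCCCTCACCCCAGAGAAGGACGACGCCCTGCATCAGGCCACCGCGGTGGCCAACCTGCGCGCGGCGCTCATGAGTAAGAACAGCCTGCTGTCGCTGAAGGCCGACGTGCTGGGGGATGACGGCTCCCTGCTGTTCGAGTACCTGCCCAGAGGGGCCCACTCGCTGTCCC
ZNF516: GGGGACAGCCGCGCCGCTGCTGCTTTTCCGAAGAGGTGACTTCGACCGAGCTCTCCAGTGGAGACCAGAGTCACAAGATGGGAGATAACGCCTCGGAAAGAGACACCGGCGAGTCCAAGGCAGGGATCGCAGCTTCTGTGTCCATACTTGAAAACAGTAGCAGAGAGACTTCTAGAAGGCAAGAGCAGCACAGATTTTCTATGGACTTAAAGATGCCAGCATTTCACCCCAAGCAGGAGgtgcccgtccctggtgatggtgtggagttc
MAVS: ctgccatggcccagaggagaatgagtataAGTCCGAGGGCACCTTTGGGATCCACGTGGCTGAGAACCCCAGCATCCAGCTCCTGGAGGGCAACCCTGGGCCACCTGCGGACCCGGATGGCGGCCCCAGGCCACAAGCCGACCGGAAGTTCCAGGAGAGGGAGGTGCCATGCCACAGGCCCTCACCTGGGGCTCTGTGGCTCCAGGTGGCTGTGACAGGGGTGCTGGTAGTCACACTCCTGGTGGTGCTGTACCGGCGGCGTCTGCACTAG
SEPT9: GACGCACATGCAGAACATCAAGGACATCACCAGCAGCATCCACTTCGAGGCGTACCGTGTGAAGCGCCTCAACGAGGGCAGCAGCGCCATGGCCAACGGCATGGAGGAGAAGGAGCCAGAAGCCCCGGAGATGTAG
Of the 6, 5 stretches are over 60% G and C under the peaks, from 60.3% in SEPT9 to 66.9% in MAVS, and that of ZNF516 is 54.0%. The motif GGACT occurs 1 time, in ZNF516, and the purine hexamer, the U run and the polyadenylation signal that are counted over all transcripts further on occur in none.

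IGF2, which codes for the fetal insulin-like growth factor 2, ranked first in both lists by the smallest p-value of a gene's peaks. Its single peak was 4546 bases wide in each list, with the same 4546 bases, and its fold enrichment was 555 in replicate 1 and 728 in replicate 2, the highest of each list. The peak took in all 543 coding bases and all 3870 bases of the 3′ UTR of the canonical transcript, but only 6 of the 1167 bases of its 5′ UTR. EEF2, the elongation factor that moves the ribosome along the mRNA, ranked 8 and 20 with a far lower fold, 2.18 and 2.36, over 1729 and 1908 bases.

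The 20 bound genes with the smallest sum of ranks held several transcription factors. ZBTB46, a zinc finger repressor, had a fold of 10.2 in replicate 1 and 103 in replicate 2. ZNF516, another zinc finger factor, had 17.6 and 59.5. SOX5, a factor of cartilage and neural development, had 6.43 and 63.1, and RREB1, a zinc finger factor of the RAS pathway, had 3690 and 5782 bases under peaks. ATXN1, a chromatin-bound regulator known from spinocerebellar ataxia, had 34.7 and 163. In all 5 the fold was higher in replicate 2, and the rank was better there too, as with ATXN1 at 121 and 5.

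Other leading genes belonged to membranes, signalling and RNA processing. MAVS, the mitochondrial adaptor of antiviral signalling, was covered over 6067 bases by 14 peaks in replicate 1 and over 11208 bases by 2 peaks in replicate 2, of which the wider ran for 10398 bases and was the widest of that list. TNFRSF21, a death receptor, had folds of 3.40 and 14.6. SEPT9, a septin of the cytoskeleton, had 6.08 and 6.29 over 85.0% and 81.7% of its transcript. RBM39, a splicing factor, had 6.45 and 4.97, with peaks over 95.9% of its coding sequence in both lists. CPLX2, a regulator of vesicle fusion, and TTYH3, a membrane protein of the tweety family, were covered over 91.1% to 99.4% of their transcripts. ARHGEF10L, a guanine nucleotide exchange factor, was covered over 81.6% and 81.0%, and MTSS1L, which links actin to membranes, over 87.4% and 93.9%.

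Others of the 20 were of mixed kind. PRSS16, a serine protease known from the thymus, had 1 peak of 180 bases, the same in both lists, in its 3′ UTR, with folds of 35.1 and 13.0. H6PD, the hexose-6-phosphate dehydrogenase of the endoplasmic reticulum, had 11.1 and 20. RPL4, a protein of the large ribosomal subunit, had 2.22 and 1.42 over 383 and 207 bases. PEG10, an imprinted gene of retrotransposon origin, had 6.64 and 2.87, with 2459 and 2250 of its peak bases outside the canonical transcript.

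The transcript of eIF3a itself was recovered in both replicates. EIF3A (chr10:119033670-119080817, minus strand) had 1 peak of 2578 bases at a fold of 11.8 in replicate 1, rank 27, and 2 peaks of 2279 bases together, the better at a fold of 2.90, in replicate 2, rank 280. All 2279 bases of replicate 2 lay under the peak of replicate 1. The peaks covered 60.9% and 54.4% of the 4149 coding bases, ran from exon 11 or 12 of 22 to just past the stop codon, took 51 and 21 bases of the 2369-base 3′ UTR, and took none of the 5′ UTR. The overexpression construct holds the coding sequence, and its part in these peaks was not tested.

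**Figure D1:**
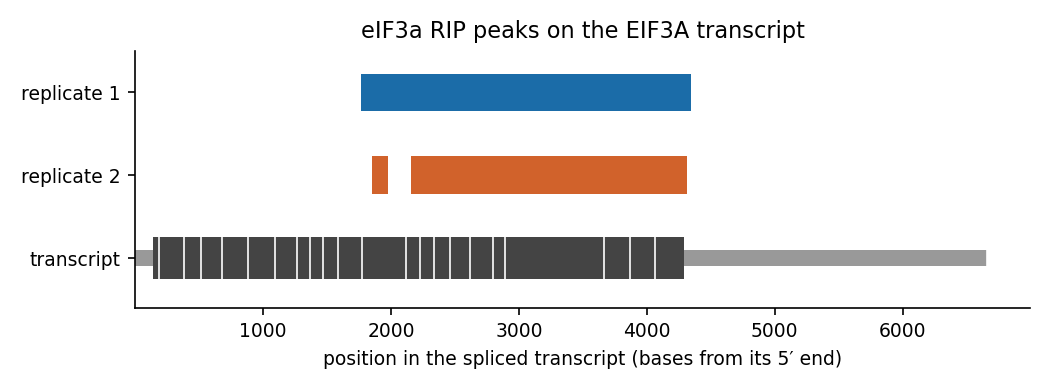
Peaks on the EIF3A canonical transcript, with position in bases from its 5′ end on the horizontal axis; the thick dark bar is the coding sequence cut at exon borders, the thin grey bars are the UTRs, and the coloured bars are the peaks of each replicate. The peak of replicate 1 (2578 bases) and the 2 of replicate 2 (2279 bases together) lie in the later part of the coding sequence and end near the stop codon.

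Of the 13 eIF3 subunit genes, 3 were bound (23.1%), 5 had a peak in replicate 1 alone and 5 in neither, beside the 22.8% of all protein coding genes. EIF3B, which with eIF3a forms the core of the complex, had folds of 2.84 and 1.34 over 630 and 120 bases. EIF3J, a loosely held subunit, had 6.94 and 1.30 over 629 and 91 bases, at ranks 165 and 4837. In replicate 1 alone, EIF3E (fold 1.66), EIF3C (1.50), EIF3H (1.55), EIF3I (1.75) and EIF3G (1.25) had peaks over 120 to 481 bases. EIF3C shares nearly all its sequence with EIF3CL, whose peaks in replicate 1 were of like fold, 1.49, and reads of the pair may not be told apart. EIF3D, EIF3F, EIF3K, EIF3L and EIF3M had none.

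Bound genes carried few peaks each. The median was 3 peaks per gene in replicate 1 and 2 in replicate 2, or 2.5 ± 0.71 (SD, n = 2 lists). A single peak was found on 22.2% of bound genes in replicate 1 and on 41.1% in replicate 2, and 6 or more on 16.6% and 9.36%. The median gene had 630.5 bases under peaks in replicate 1 and 481 in replicate 2, which is 14.2% and 11.3% of its transcript. Replicate 1 had more peaks on 2448 bound genes, replicate 2 on 894, and they had as many on 1254. By covered bases the balance was more even, with more in replicate 1 for 2648 genes and more in replicate 2 for 1877.

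A shared gene name did not always mean shared bases. Of the 4596 bound genes, 3725 (81.0%) had at least 1 base under a peak in both lists and 871 (19.0%) had none, so that their peaks lay on different exonic bases. On bound genes, 53.6% of the peaks of replicate 1 and 64.7% of those of replicate 2 overlapped a peak of the other list by at least 1 base. Shared bases came to 2158489, or 50.2% of the peak bases of bound genes in replicate 1 and 48.4% in replicate 2. A peak of replicate 2 spanned 2 or more peaks of replicate 1 in 935 cases (7.78%), and the reverse held for 610 (3.83%). Across the 4596 bound genes, Spearman's rank correlation between the replicates was 0.53 for the fold of the best peak, 0.55 for covered bases, 0.52 for the number of peaks and 0.42 for the rank by best p-value. These describe genes of the same libraries, which are not independent replicates. Covered bases also went with transcript length, at a rank correlation of 0.27 in replicate 1 and 0.36 in replicate 2.

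**Figure D2:**
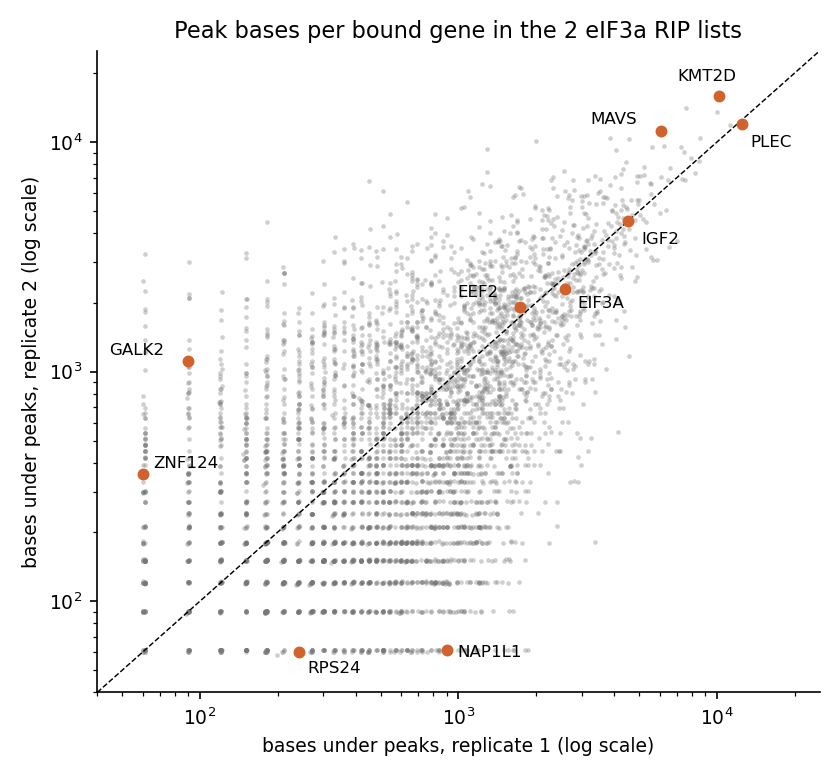
Bases under peaks per bound gene in replicate 1 (horizontal) and replicate 2 (vertical), both on log scales; each grey point is 1 of 4596 genes, orange points are named genes and the dashed line marks equal values. IGF2 (4546 bases in both) lies on the line, while ZNF124 (60 and 357), GALK2 (90 and 1107), RPS24 (241 and 60) and NAP1L1 (904 and 61) lie far from it.

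The genes with most covered bases, by the lower of both lists, were very long transcripts. PLEC, the cytolinker plectin, had 12508 and 12000 bases under 11 peaks in each list, or 84.5% and 81.1% of its transcript. PKD1, the polycystin mutated in polycystic kidney disease, had 11247 and 11834 bases, and KMT2D, a histone methyltransferase, had 10207 and 15869. UBR4, a ubiquitin ligase, had 9998 and 13554, of which 1 peak of replicate 2 took 7792 bases over 54 blocks. SOGA1, a microtubule-associated protein, had 8596 and 10422. By the lower count of both lists, the most peaks were on STARD9, a kinesin, with 27 and 24, then on HSPG2, the basement membrane proteoglycan perlecan, with 22 and 16, and on KMT2D with 20 and 16. ZFHX3, a homeobox factor, had 15 in each list, and CLMN, an actin-binding membrane protein, 14 in each, a lower count that LAMA5 (15 and 14) shared.

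Peaks of bound genes lay mainly in coding sequence. By the middle base of each peak on the canonical transcript, 56.5% of the peaks of replicate 1 and 57.2% of those of replicate 2 were coding, or 56.85% ± 0.55 (SD, n = 2 lists). The 3′ UTR held 39.5% and 39.8%, and the 5′ UTR 4.04% and 2.99%. Coding sequence is 47.25% of the summed transcript length of these genes, the 3′ UTR 48.4% and the 5′ UTR 4.35%. Put per base, peaks covered 22.5% and 24.2% of coding bases, 13.2% of 3′ UTR bases in each list, and 13.1% and 10.2% of 5′ UTR bases. The coding sequence was thus the most densely covered region in both lists, and the replicates differed by less than 2 percentage points there.

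The ends of the coding sequence were counted gene by gene. Of 4570 bound genes with a coding transcript, 771 (16.9%) had a peak over the start codon in replicate 1, 595 (13.0%) in replicate 2 and 251 (5.49%) in both. The end of the coding sequence was under a peak in 1136 (24.9%), 671 (14.7%) and 444 (9.72%). JUN, the AP-1 subunit, had its main signal in the 5′ UTR: its best peak was centred in the 5′ UTR in both lists, at folds of 5.16 and 4.51, and covered 834 and 690 of the 977 bases of that UTR. MAT2A, the enzyme that makes S-adenosylmethionine, was covered over 100% and 94.2% of its coding sequence, at folds of 6.32 and 3.34.

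The replicates differed along the coding sequence. In replicate 1 the share of bases under a peak went from 18.6% in the first of 40 coding bins to 27.8% in bin 38 and 26.7% in the last. In replicate 2 it went from 17.7% to 26.1% in bin 20 and back to 16.8% in the last. In the 5′ UTR both lists climbed towards the start codon, from 6.43% to 17.1% in replicate 1 and from 3.74% to 14.5% in replicate 2. The last of the 20 bins of the 3′ UTR held 3.30% and 4.09%. With 1 list per curve, the difference between replicates has no error of its own.

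**Figure D3:**
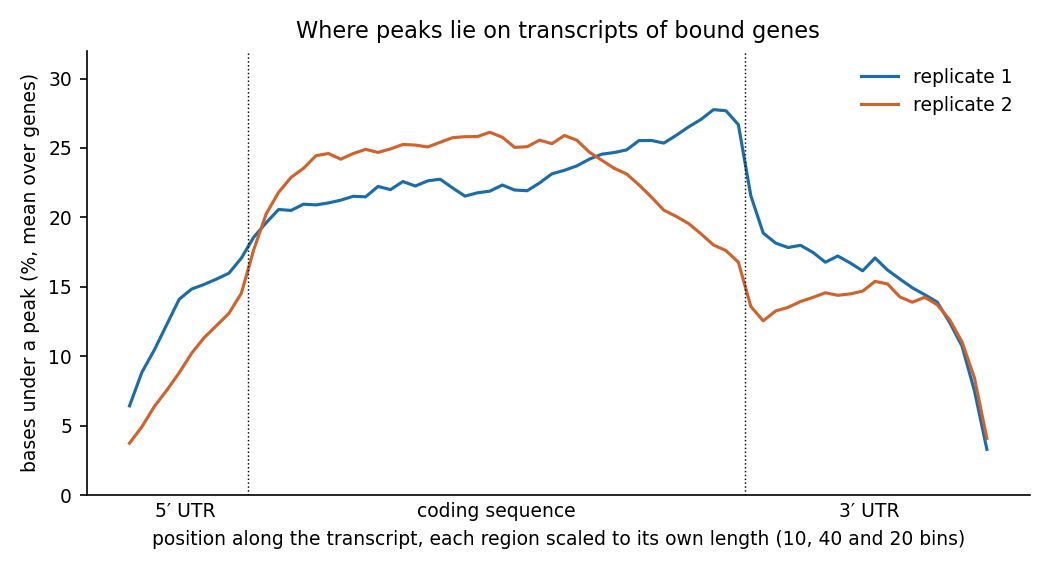
Share of bases under a peak (vertical, percent, mean over 3193 bound genes whose 3 regions are each at least 100 bases long) along the 5′ UTR, coding sequence and 3′ UTR (horizontal, each scaled to its own length), for each replicate. Replicate 1 ends the coding sequence at 26.7% and replicate 2 at 16.8%, and both are lowest at the transcript ends.

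The share of G and C under peaks differed by region. Transcripts of bound genes were cut into tiles of 100 bases, and the 13168 tiles wholly under a peak in both lists had a mean G and C content of 56.7%, against 53.3% under replicate 1 alone, 51.9% under replicate 2 alone and 46.5% under neither. Region moves with this, and within the coding sequence the means were 57.1% under both and 50.9% under neither, within the 3′ UTR 55.3% and 41.2%. In the 5′ UTR they were close, 67.9% under both and 66.6% under neither, and tiles under replicate 2 alone had 55.8%. The purine hexamer GAAGAA, read on the sense strand, occurred in 11.5% of tiles under both lists and 6.63% under neither. Within coding tiles these shares were 16.0% and 10.2%, and 15.8% under replicate 1 alone but 9.59% under replicate 2 alone, so this letter run went with replicate 1. The U run TTTTT (written as DNA) was in 5.52% and 20.1%, the polyadenylation signal AATAAA in 1.92% and 5.56%, and GGACT, which fits the m6A consensus, in 10.2% and 8.41%. For GGACT the shares within coding tiles were close, 10.0% and 9.85%, and in the 5′ UTR they lay the other way, 8.29% and 10.2%. Within the 3′ UTR the GGACT shares differed more, 10.25% under both lists and 6.999% under neither. These are counts of letters in windows and say nothing of a binding site.

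Replicate 2 lacked 3570 of the 8166 genes of replicate 1. Those it lacked had a median rank of 5561.5 in replicate 1. With the genes of replicate 1 ordered by their best p-value and cut into 10 equal groups, 89.3% of the first group was found in replicate 2 and 24.3% of the last, and each group was lower than the one before. For the genes of replicate 2, cut in the same way, 95.6% of the first group and 75.1% of the last were found in replicate 1. In all, 56.3% of the genes of replicate 1 (95% Wilson interval 55.2 to 57.4, counting error only) and 87.9% of those of replicate 2 (87.0 to 88.8) were in the other list.

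**Figure D4:**
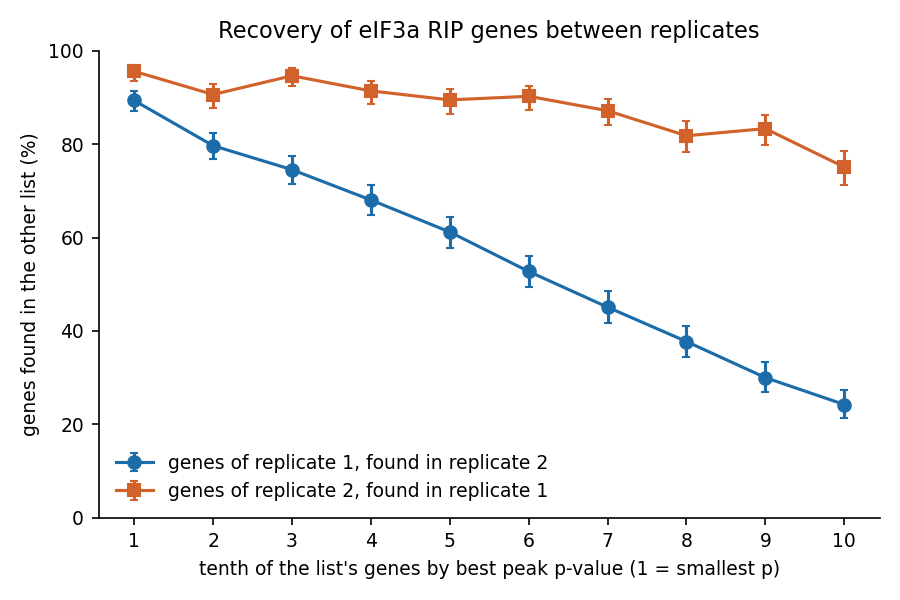
Share of each list's genes found in the other list (vertical, percent) over 10 equal groups of the list, from the smallest to the largest best p-value (horizontal); bars are 95% Wilson intervals. The share falls from 89.3% to 24.3% for genes of replicate 1 and from 95.6% to 75.1% for genes of replicate 2.

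Genes of replicate 1 alone had a median of 1 peak and 181 covered bases, against 3 and 630.5 for bound genes in the same list, while the median fold of the best peak was close, 3.19 against 3.61. Their transcripts were shorter, with a median of 2914 bases against 4551 for bound genes. Length went with membership over all protein coding genes: of the 4004 genes with the shortest canonical transcripts (up to 1474 bases), 2.92% were bound, and of the 4004 with the longest (from 5318 bases), 44.1%. Of the genes of replicate 1 among them, 18.75% of the shortest and 74.5% of the longest were found again in replicate 2. The part of transcript length in the counts by function was not tested.

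The 5 best called genes that replicate 2 lacked had folds of 1.55 to 2.40. FN1, the matrix protein fibronectin, ranked 13 in replicate 1 with a fold of 1.55 over 211 of its 8390 bases. RPS25, RPL3, RPS20 and RPS12, all ribosomal proteins, ranked 20, 29, 35 and 40 with folds of 2.09, 1.70, 2.40 and 1.57. Of the 100 best genes of replicate 1, 10 were missing from replicate 2, and of the 100 best of replicate 2, 1 was missing from replicate 1. GAPDH, the glycolytic enzyme, had a fold of 1.30 over 180 bases in replicate 1 and no peak in replicate 2, while ACTB, cytoplasmic actin, had 2.78 over 447 bases and 1.69 over 60.

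Some bound genes held very different ranks in the lists. RPS24 had its 241 bases at rank 28 in replicate 1, and in replicate 2 a peak of 60 bases at rank 5145 that lay off the canonical transcript and shared no base with the other. PES1, a factor of large subunit assembly, ranked 637 and 5178, with no shared base. NAP1L1, a histone chaperone, ranked 293 and 4873, and ARPC4, of the actin-nucleating Arp2/3 complex, 678 and 5188, each with 61 bases in replicate 2. The reverse was seen with ZNF124, a zinc finger gene, at ranks 7900 and 21, PHKB, a subunit of phosphorylase kinase, at 7821 and 76, and SLC22A3, an organic cation transporter, at 8064 and 254. NUP54, a nucleoporin, and GALK2, a sugar kinase, had 90 bases each in replicate 1 and 803 and 1107 in replicate 2.

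Replicate 2 added 630 genes that replicate 1 lacked. They had a median of 1 peak and 240 covered bases, and a median fold of 4.43, higher than the 3.24 of bound genes in that list. Their peaks were centred in coding sequence in 75.1% of cases, against 57.2% for bound genes of replicate 2 and 60.2% for genes of replicate 1 alone. RELL1, a membrane protein, led at rank 18 with a fold of 25.1 over 561 bases in 6 exonic blocks. ATXN10 (fold 4.98, 837 bases), ZFAND6 (5.15, 502 bases), the glycosyltransferase gene B3GALNT2 (13.9, 898 bases) and the WD repeat gene WDR20 (18.8, 1348 bases) followed, at ranks 136 to 197. In 4 of these 5 the best peak crossed 5 or more exonic blocks, and peaks of 5 or more blocks made up 10.8% of replicate 2 and 4.26% of replicate 1.

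The functions of recovered transcripts were counted in 32 lists of genes and in 1 of markers of other cell types, beside the 22.8% of all protein coding genes that were bound. The share bound ran from 93.3% of 45 chromatin remodellers and histone lysine enzymes to 3.66% of 82 histone genes. The median transcripts of these 2 lists are 8541 and 494.5 bases. Of all 20020 protein coding genes, 3543 had a peak in replicate 1 alone, to be set beside such counts in the lists. The counts carry no test, and the lists differ in transcript length and in how many of their genes HepG2 uses.

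**Figure D5:**
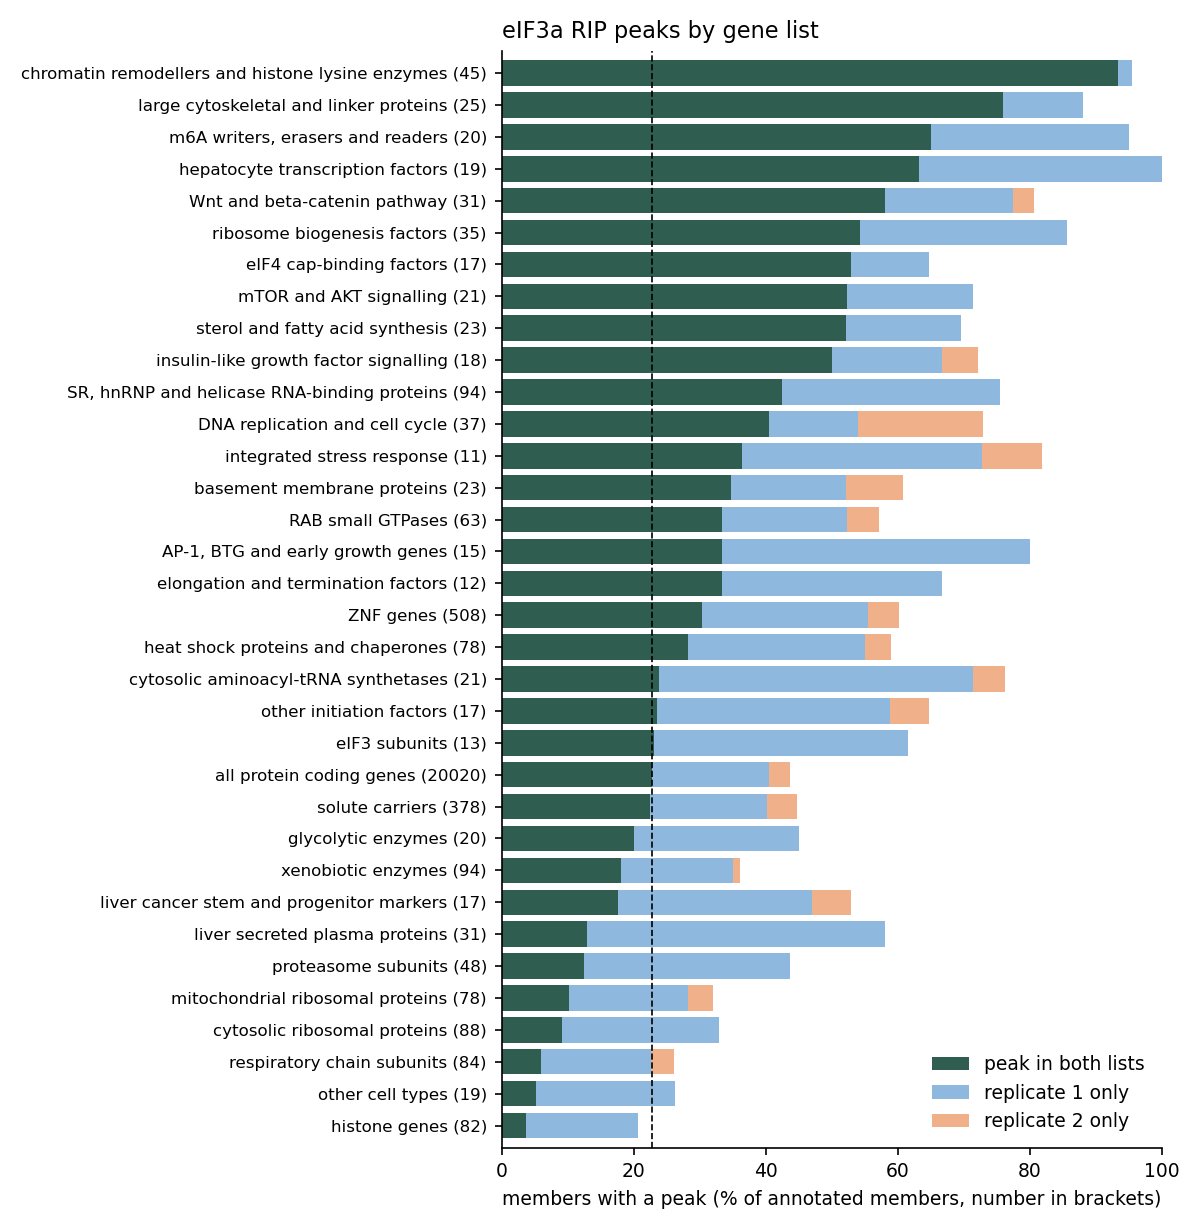
Share of annotated members of each gene list (number in brackets) with a peak in both eIF3a lists (dark green), in replicate 1 alone (blue) or in replicate 2 alone (orange), in percent; the dashed line is the 22.8% of all protein coding genes with a peak in both. Chromatin enzymes reach 93.3% and histone genes 3.66%, with median transcripts of 8541 and 494.5 bases.

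Of 17 factors around the mRNA cap or the poly(A) tail, 9 were bound (52.9%) and 2 had a peak in replicate 1 alone. EIF4G1, the scaffold that bridges the cap-binding protein and eIF3, ranked 120 and 145 with folds of 3.03 and 3.34 over 2100 and 4555 bases. PABPC1, the poly(A)-binding protein, had 1.55 and 1.91, and EIF4G2, a relative of EIF4G1 without cap binding, 1.78 and 1.45. EIF4EBP2, a repressor of the cap-binding protein, had 2.71 and 4.50. EIF4E, the cap-binding protein itself, had a peak in replicate 1 alone, at a fold of 2.37 over 150 bases.

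Other initiation factors were bound at 4 of 17 (23.5%). EIF2A, an alternative initiator tRNA carrier, had the same 299 bases under 1 peak in each list, at folds of 3.92 and 1.95. EIF2S3, the gamma subunit of eIF2, had 2.62 and 1.70, and EIF5B, the GTPase of subunit joining, 7.92 and 2.94. Of 11 genes of the integrated stress response, the pathway that slows initiation through eIF2, 4 were bound (36.4%). They were the kinases EIF2AK1 (folds 5.68 and 2.82), EIF2AK2 (3.44 and 3.85) and EIF2AK4 (2.79 and 1.45), and the transcription factor ATF4 (1.75 and 1.22). PPP1R15A, which recruits the phosphatase that ends the response, had 1520 covered bases in replicate 1 and none in replicate 2.

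Elongation and termination factors were bound at 4 of 12 (33.3%). Beside EEF2 these were its inhibitory kinase EEF2K, with folds of 14.4 and 4.77 over 1561 and 2134 bases, EEF1D, part of the exchange factor of EEF1A, at 1.58 and 1.83, and GSPT1, the release factor eRF3a, at 1.85 and 1.83. Of 21 cytosolic aminoacyl-tRNA synthetase genes, 5 were bound (23.8%, beside 22.8% of all protein coding genes). A further 10 had a peak in replicate 1 alone and 1, RARS1, in replicate 2 alone. IARS1, for isoleucine, went from 120 bases at rank 5289 in replicate 1 to 987 bases at rank 169 in replicate 2.

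Of 88 cytosolic ribosomal protein genes, 8 were bound (9.09%) and 21 had a peak in replicate 1 alone, none in replicate 2 alone. Beside RPL4, the best placed were RPL28, with folds of 1.96 and 11.3, and RPL7L1, a paralogue of RPL7, with 5.97 and 3.59, both with their best peak in the 3′ UTR. Of the 8, RPL4 alone had its best peak in coding sequence in both lists. The best peaks of RPL13 and RPS29 lay off the canonical transcript in both lists. Transcripts of the 88 genes are short, with a median of 858.5 bases. Of the 65 among the 4004 shortest protein coding transcripts, 2 were bound, where 2.92% of all those 4004 were. Reads of these genes may be shared with their many processed pseudogenes. Of 78 mitochondrial ribosomal protein genes, 8 were bound (10.3%), led by MRPL30 (8.54 and 4.82) and MRPS16 (6.61 and 3.54). The median transcript of the 78 is 1242 bases. Of the 46 among the same 4004 shortest transcripts, 2 were bound.

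Of 35 factors that build ribosomes, 19 were bound (54.3%) and 11 more had a peak in replicate 1 alone. NCL, the nucleolar protein nucleolin, ranked 2 in replicate 1 and 304 in replicate 2, with folds of 6.58 and 1.97 over 1435 and 750 bases. NOP58, of the box C/D snoRNPs, had 4.47 and 2.27, MDN1, the giant remodelling ATPase of the large subunit, 9.68 and 6.83, and MYBBP1A, a nucleolar transcription regulator, 3.94 and 2.53. NPM1, nucleophosmin, had a fold of 1.67 in replicate 1 and no peak in replicate 2.

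Other housekeeping families also gave shares below 22.8%. Of 84 respiratory chain genes, 5 were bound (5.95%), with CYCS, cytochrome c, at folds of 9.92 and 8.87 and NDUFV3, a complex I subunit, at 4.81 and 3.85. Of 48 proteasome genes, 6 were bound (12.5%) and 15 had a peak in replicate 1 alone. PSMB2, a core particle subunit, had 8.93 and 5.59. Many genes of both families have short transcripts. Among the 4004 shortest protein coding transcripts, 1 of 60 respiratory chain genes and 1 of 23 proteasome genes were bound. Of all those 4004, 2.92% were. Of 20 glycolytic genes, 4 were bound (20%), among them the hexokinase HK2 at 2.95 and 2.83 and GPI, the isomerase of the next step, at 3.62 and 7.18. Heat shock proteins and chaperones were near the background, 22 of 78 (28.2%). HSP90AA1 had 3.41 and 1.78, HSPA1A 2.87 and 2.55, and HSP90AB1, the constitutive form, had 1.69 in replicate 1 alone.

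Chromatin enzymes stood at the other end, with 42 of 45 bound. BPTF, of the NURF remodeller, had folds of 4.44 and 14.8, NSD2, a histone H3 lysine methyltransferase, 3.29 and 7.84, and SRCAP, which loads the variant histone H2A.Z, 4.84 and 33.0. CHD5 had a peak in replicate 1 alone, and EHMT2 and NSD1 in neither. The list's median transcript is 8541 bases. Of its 40 members among the 4004 longest protein coding transcripts, 38 were bound, where 44.1% of all those 4004 were. Large cytoskeletal and linker proteins, with a median of 9441 bases, were bound at 19 of 25 (76.0%). MYH9, non-muscle myosin, had 7.84 and 2.6 over 4590 and 3392 bases, and DSP, desmoplakin, 3.55 and 1.77.

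Basement membrane genes are long as well. Of 23 basement membrane genes, 8 were bound (34.8%). Of the 21 among the 4004 longest transcripts, 8 were bound, where 44.1% of all those 4004 were. COL18A1 had folds of 4.06 and 2.18 over 4710 and 2854 bases, AGRN, agrin, 4.13 and 3.52, and LAMA5, a laminin chain, 5.40 and 2.55. LAMA2 and LAMA3 had a peak in replicate 2 alone. Splicing and RNA-binding proteins of the SR, hnRNP and helicase families were bound at 40 of 94 (42.6%), with 31 more in replicate 1 alone. Of those with a peak in replicate 1, 56.34% were found again in replicate 2, beside 56.32% of all protein coding genes. SRRM2, the large scaffold of nuclear speckles, had 4.60 and 2.64 over 8248 and 7354 bases, SRRM1 19.5 and 9.08, the splicing factor SRSF1 6.65 and 3.37, and DDX39B, a helicase of mRNA export, 3.58 and 1.95.

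Of 18 genes of insulin-like growth factor signalling, 9 were bound (50%). Beside the ligand IGF2, its signalling receptor IGF1R had folds of 6.99 and 5.59 over 3369 and 7084 bases, and the mRNA-binding proteins IGF2BP1 and IGF2BP2 had 2.55 and 5.26, and 2.58 and 3.29. IGFBP1, a secreted binding protein of the liver, had 2.07 in replicate 1 alone. Of 21 genes of mTOR and AKT signalling, 11 were bound (52.4%). LARP1, which holds ribosomal protein mRNAs under mTOR control, had 4.32 and 7.69, RPTOR, the substrate-binding subunit of mTORC1, 4.35 and 9.72, PIK3R2, a PI3-kinase regulatory subunit, 4.05 and 2.62, and the kinase AKT2 3.72 and 5.01. The median transcript is 5909.5 bases for the growth factor list and 6415 for the mTOR list. Of their members among the 4004 longest protein coding transcripts, 6 of 10 and 8 of 13 were bound, where 44.1% of all those 4004 were.

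Of 31 genes of the Wnt and beta-catenin pathway, which is often mutated in liver cancer, 18 were bound (58.1%). Of the 12 among the 4004 longest protein coding transcripts, 8 were bound, where 44.1% of all those 4004 were. The co-receptor LRP5 had folds of 2.21 and 3.37 over 3359 and 4104 bases, the dishevelled adaptors DVL1 and DVL3 3.24 and 2.05, and 5.10 and 4.13, and the scaffold AXIN1 2.54 and 2.91. LEF1, a transcription factor of the pathway, had a peak in replicate 2 alone. Of 15 AP-1, BTG and early growth genes, 5 were bound (33.3%) and 7 had a peak in replicate 1 alone. JUND had 5.2 and 2.54, IER2 8.14 and 4.42, and CCND1, cyclin D1, 2.06 and 2.12. MYC had 1.82 over 752 bases in replicate 1 alone, and BTG1, an antiproliferative gene, had no peak in either list.

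All 19 hepatocyte transcription factors had a peak in replicate 1, where 8112 of 20020 protein coding genes had one. Of the 19, 12 (63.2%) were found again in replicate 2 and so were bound. Among all protein coding genes with a peak in replicate 1, 56.3% were found again. HNF4A had folds of 3.36 and 2.34 over 2367 and 1648 bases, PROX1 3.00 and 8.28, the nuclear receptor RXRA 2.37 and 8.57, and ONECUT2 3.29 and 5.79. Of 31 genes for secreted plasma proteins, 4 were bound (12.9%), 14 had a peak in replicate 1 alone and 13 in neither. The 4 were the protease inhibitors SERPINA1 (1.33 and 3.44) and SERPINF2 (2.08 and 1.79), complement C3 (1.56 and 1.20) and the fibrinogen chain FGA (1.51 and 1.69). APOA1 and APOE, the apolipoproteins, ranked 46 and 49 in replicate 1 at folds of 1.97 and 1.98 and had no peak in replicate 2. The median transcript is 3509 bases for the factors and 2072 for the plasma proteins.

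Of 23 genes of sterol and fatty acid synthesis, 12 were bound (52.2%). FASN, fatty acid synthase, had folds of 3.67 and 2.75 over 7504 and 6811 bases, the desaturase SCD 2.19 and 2.58, and the sterol-sensing transcription factor SREBF2 1.88 and 6.28. Of 94 genes on the list of xenobiotic enzymes, 17 were bound (18.1%). Of the 37 with a peak in any of the 6 lists, 45.95% were bound, beside 42.53% of all such protein coding genes. The list also counts aldehyde dehydrogenases, and ALDH6A1 (7.99 and 4.26) and ALDH4A1 (1.99 and 2.01) were its best placed bound members. Of 17 liver cancer stem and progenitor markers, 3 were bound (17.65%), SOX9 (10.2 and 2.77), ANPEP (2.78 and 1.67) and ABCG2 (4.13 and 1.49). PROM1, which codes for CD133, had 1 peak of 91 bases at rank 6938 in replicate 1 alone, SALL4 had 6 peaks in replicate 2 alone, and EPCAM had none in either list.

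Of 20 genes on the list of m6A writers, erasers and readers, 13 were bound (65.0%) and 6 had a peak in replicate 1 alone. The list also counts MAT2A, which is none of these and is among the 13. METTL3, the catalytic writer of mRNA m6A, had folds of 2.32 and 17.1 over 775 and 803 bases, RBM15 11.7 and 2.81, and ZC3H13 62.0 and 3.45. METTL16, a separate m6A writer, had 7.16 and 6.53 over 694 and 543 bases, mostly in its 3′ UTR, at ranks 3292 and 3405. VIRMA and WTAP, of the writer complex, had peaks in replicate 1 alone.

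Of 37 genes of DNA replication and the cell cycle, 15 were bound (40.5%), 5 had a peak in replicate 1 alone and 7 in replicate 2 alone, where 621 of 20020 protein coding genes were in replicate 2 alone. CCNB1, cyclin B1, had a fold of 3.45 over 298 bases and CDC25A, a phosphatase that activates CDKs, 4.22 over 509 bases in replicate 2. MDM2, the ubiquitin ligase of p53, had 12.1 and 3.74, and CDK6 2.63 and 3.59 under 14 and 12 peaks. Whether the cultures differed in proliferation was not tested.

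Among families named by symbol, ZNF genes were bound at 154 of 508 (30.3%), solute carriers at 85 of 378 (22.5%) and RAB GTPases at 21 of 63 (33.3%). ZNF512B had folds of 15.4 and 13.3, ZNF587 11.8 and 22.4, SLC25A15, the mitochondrial ornithine carrier, 47.9 and 13.5, SLC7A5, a large neutral amino acid transporter, 2.72 and 2.81, and RAB2B 19.1 and 6.12. Only 26 bound names fell outside the annotated protein coding genes. Of these, 14 could not be matched, 3 were long non-coding RNAs, C3orf35, C5orf66 and KAAG1, and 9 were pseudogenes in GENCODE. Of 82 histone genes, 3 were bound, the linker histone H1-10 and the variant H2AZ2 among them. Of the 76 histone genes among the 4004 shortest protein coding transcripts, none was bound, where 2.92% of all those 4004 were.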

How the data were processed

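Per the labels and the methods, the authors aligned reads to GRCh38 with STAR and ran exomePeak with its default settings on RIP against input, 1 list per RIP sample. Versions, the annotation and the pairing of RIP with input are not given in the sources used here. Each deposited peak has exonic blocks, a gene symbol, a p-value from the authors' caller, 2 scores (base 10 logarithms of the raw and adjusted p) and a fold enrichment over input. No read counts were used, so precision rests on the 2 lists. The largest adjusted p was 0.0479 in replicate 1 and 0.0501 in replicate 2.

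Coordinates were counted from 1 and placed on canonical transcripts of GENCODE release 44. Of 8796 names, 8394 matched a current symbol, 368 an older symbol whose gene holds a peak of that name, and 34 none. Of the matched names, 20 had no peak inside that gene. Covered bases are strand-aware unions of exonic blocks, and genes were ranked by their smallest p-value. With 2 lists of 1 protein and no second condition, no test was made. Wilson intervals are at 95%. Functions were checked on simulated peaks (Python 3.11.15, numpy 2.4.6, scipy 1.17.1, pysam 0.24.0).

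The members and gene lists were chosen with earlier results of these data known. Genes were named as the 20 bound genes of smallest rank sum, the 5 best of each replicate alone, the 5 whose ranks differed most each way, the 5 with most covered bases and the 5 with most peaks (by the lower of both lists), all eIF3 subunits, up to 4 bound members and 2 in 1 replicate alone per list, and EIF3A, EIF3B, METTL16, MAT2A, JUN, BTG1, PROM1, EPCAM, ALB, AFP, GAPDH and ACTB. Alternatives were other peak thresholds, leaving out a replicate, a stricter or looser call, joined peaks, assignment by bases and another background. Some genes that the rule names are not reported here.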

Additional observations from a re-analysis of the deposited data

How the results depend on the processing

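Of 32 recomputed values, 16 stayed within the spread between replicates, the counting interval or 1.5 times the count, and 16 moved. The medians and the coding share without 1 replicate are among those that stayed. They could not have moved, because either of 2 lists always lies within 1 SD of their mean. With only peaks of a fold of at least 4, bound genes fell to 1549, the share of replicate 1 genes found in replicate 2 to 37.9%, median peaks per bound gene to 1.5 and the coding share of peaks to 52.0%. With the 5000 peaks of smallest p-value per list, these were 1717, 58.1%, 1.5 and 57.7%, and median covered bases 779.5. With an adjusted p of at most 0.001, bound genes were 3460 and the coding share 58.1%. Leaving out 1 replicate gave 5226 to 8166 bound genes, 2 to 3 median peaks, 481 to 630.5 median covered bases and a coding share of 56.5% to 57.2%. A peak in either replicate gave 8796 genes. Over all genes of each list, median covered bases were 403.2, and by bases in place of peak centres the coding share was 61.5%. The mean share of peaks overlapping the other list was 59.2% at 1 base and 45.8% at 50% of the peak. Against genes with a peak in any of the 6 lists, the background share was 42.5% in place of 22.8%, and 15 in place of 22 of the 33 gene lists lay above it. Xenobiotic enzymes rose above it (45.95%). Among the lists that fell below it were ZNF genes (41.96%) and heat shock proteins and chaperones (36.07%). The count of bound genes thus depends on the peak threshold. The coding share at a fold of at least 4 was 49.9% in replicate 1 and 54.1% in replicate 2. No paired analysis was possible because no test was made and the inputs have no list of their own. Without read counts, a gene missing from replicate 2 cannot be told apart from one too shallow to be called.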
